A study of Mus musculus with 6 samples.

Results

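The MYC, MAX and MXD network was followed through its 9 genes Myc, Mycn, Max, Mxd1, Mxd3, Mxd4, Mxi1, Mnt and Mga, chosen by name from the 24346 gene symbols measured. Libraries came from primary stromal cells of C57BL/6 mouse prostate. In 3 libraries the cells carried S37A β-catenin in the FU-CGW lentiviral vector, and in 3 they carried the vector. The donor mice were 8 to 12 weeks old, and all cells were grown with 1e-10 M dihydrotestosterone on collagen and used within 3 weeks of dissociation. S37A β-catenin lacks a serine through which the protein is marked for breakdown, and the cells of both groups kept their own Ctnnb1 gene. Nothing in the labels ties the 3 libraries of a group to separate animals or dishes, so every p-value measures only their spread, part of which may be technical.

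MYC and N-MYC are transcription factors that bind DNA only as dimers with MAX, mostly at E-boxes with the letters CACGTG, and raise the transcription of genes for ribosome building, nucleotide synthesis and cell division. MXD1, MXD3, MXD4, MXI1 and MNT also dimerise with MAX at E-boxes, but recruit SIN3 and histone deacetylases and repress. MGA is a larger MAX partner that also holds a T-box and works within a Polycomb complex. Myc is widely known as a target of β-catenin and TCF in intestinal epithelium, and whether it and its partners moved in stromal cells with S37A β-catenin was the question here.

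Levels are in FPKM, a fragment density scaled by transcript length and by library size, summed over the transcript models of a gene. The interval widths in the files corresponded to 38900000 to 44800000 fragments per S37A library and 44200000 to 48800000 fragments per vector library. Group values are means ± SD over n = 3 libraries. Tests were run with limma on log2(FPKM + 1) over 12022 genes whose mean reached 0.5 FPKM, with Benjamini-Hochberg adjustment over all of them and a call at an adjusted p under 0.05. In that comparison 6.06% of genes were called higher in S37A and 19.9% lower (26.0% in either direction), and over all genes the log2 difference had a median of -0.07. Ctnnb1 stood at 132, 144 and 146 FPKM in S37A and 116, 99.1 and 116 FPKM in vector (limma adjusted p = 0.0158). The adjusted p was 0.0567 without S37A replicate 2 and 0.0618 without S37A replicate 3. Whether reads of the S37A β-catenin insert are among those of Ctnnb1 cannot be told from these values. Axin2, a feedback target of β-catenin, averaged 2.95 ± 0.296 FPKM in S37A and 0.131 ± 0.0385 FPKM in vector (adjusted p = 3.85e-05). The 10 stromal markers summed to between 11507 and 11618 FPKM in S37A and between 10049.8 and 10433 FPKM in vector. Of these Thy1, Acta2 and Tagln were called higher and Pdgfra lower. Over the other settings the limma calls of Acta2, Tagln and Pdgfra were each lost at least once (highest adjusted p 0.276, 0.146 and 0.0577). The 10 prostate epithelial markers summed to between 10.7 and 20.8 FPKM in S37A and between 13.3 and 19.4 FPKM in vector, and 4 of them averaged under 0.5 FPKM. The 8 endothelial markers summed to between 102 and 106 FPKM in S37A and between 106 and 120.5 FPKM in vector. The 6 glial markers summed to between 2.54 and 3.50 FPKM in S37A and between 3.00 and 3.75 FPKM in vector. Of the tested epithelial (6), endothelial (7) and glial (2) markers, 0 were called.

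Of the 9 network genes, 7 passed the expression filter, and of these 3 were lower in S37A (Mxd4, Myc and Mga), 0 were higher and 4 did not pass the test (Max, Mnt, Mxi1 and Mxd1). Of all genes tested, 19.9% were called lower and 6.06% higher. Without the filter Mycn was called higher. Mycn and Mxd3 lay under the filter. The median log2 difference of the 7 tested genes was -0.14, with 6 negative and 1 positive, where 69.5% of all genes were negative. Groups did not overlap for 4 of the 7, against 47.8% of all genes; all 4 were lower in S37A, as were 36.5% of all genes, where 11.3% were higher without overlap. The changes were small: the largest fitted one, that of Mxd4, was -0.40 on the log2 scale.

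**Figure D1:**
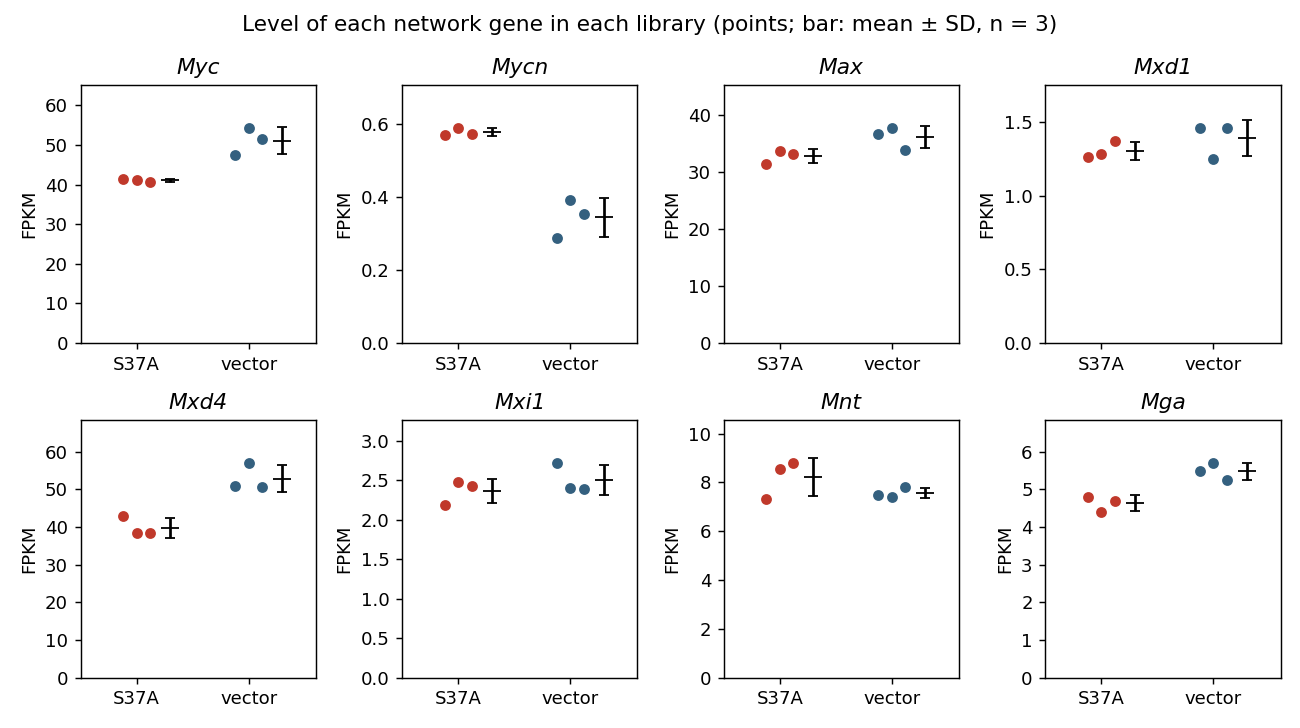
FPKM of 8 network genes in each S37A library (red, left) and vector library (blue, right), with the mean and SD of n = 3 beside the points; each panel has its own axis from 0. The groups stand apart for Myc, Mycn, Max, Mxd4 and Mga and overlap for Mxd1, Mxi1 and Mnt, and Mxd3 is not drawn because it was listed at 0 in all 6 libraries.

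Myc, Mxd4 and Max were the most abundant of the 9 by far. Per length of transcript they made up 86.3% to 87.8% of the summed FPKM of the network in S37A and 88.6% to 89.7% in vector. In S37A the order of mean levels was Myc, Mxd4, Max, Mnt, Mga, Mxi1, Mxd1 and Mycn, and in vector Mxd4 stood before Myc with the rest in the same order. Myc and Mxd4 did not differ beyond their spread in either group, at 41.1 ± 0.358 and 39.8 ± 2.69 FPKM in S37A and 51.1 ± 3.37 and 52.9 ± 3.65 FPKM in vector. Every other neighbouring pair in that order was separated in all 6 libraries.

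Myc lies on chromosome 15 from 61985341 to 61990361 (mm10, from the files' positions counted from 1), a protein-coding gene with no other annotated model overlapping it in the files. It was at 41.5, 41.1 and 40.7 FPKM in S37A and at 47.5, 54.3 and 51.4 FPKM in vector. All 3 S37A libraries were below all 3 vector libraries, and the S37A values lay within 1 FPKM of each other. Myc fell by 19.5% in the ratio of means, or by 0.30 on the log2 scale (SE 0.05, limma adjusted p = 0.00961). Its adjusted p ran from 0.00143 to 0.0454 over the 16 other settings tried, so that it was called in each of them. Permuting the 6 Myc values exactly and two-sided gave p = 0.1, which is the floor for 3 against 3. In RNA from whole cultures, fewer cells of a type and less RNA per cell cannot be told apart.

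Markers of dividing cells moved with Myc. Of 12 proliferation markers tested, 11 were lower in S37A (91.7%, beside 19.9% of all genes) and 0 higher, with a median log2 difference of -0.51. Their summed level was 87.7, 85.1 and 90.1 FPKM in S37A, against 109.9, 146 and 126 FPKM in vector, and none of the 12 was at 0. Over the other settings the limma calls of Mki67, Ccnb1, Plk1, Aurkb, Mcm5 and Pcna were each lost at least once (highest adjusted p 0.0590 to 0.963). Mcm2, a subunit of the replicative helicase, was at 6.70, 7.17 and 6.86 FPKM in S37A and 9.50, 13.1 and 11.2 FPKM in vector (adjusted p = 0.00919). Within the vector group the library with the lowest Myc, replicate 1, also had the lowest proliferation sum, and replicate 2 had the highest of both. Within S37A, replicate 3 had the lowest Myc and the highest proliferation sum. Macrophage markers moved the other way: 9 of 11 tested were higher (81.8%, beside 6.06% of all genes). The 14 listed summed to 69.3, 71.1 and 63.0 FPKM in S37A and 30.7, 24.4 and 25.1 FPKM in vector, and 0 of them were at 0 throughout. The limma calls of Cd68 and Fcer1g were each lost in at least 1 other setting (highest adjusted p 0.0510 and 0.0604). Lyz2, a lysozyme gene of myeloid cells, averaged 36.7 ± 2.63 FPKM in S37A and 14.1 ± 1.91 FPKM in vector (adjusted p = 0.000847), while Adgre1, Ptprc and Itgam averaged under 0.5 FPKM. The part of dividing cells and of macrophages in the level of Myc, and of every gene below, was not tested.

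Pvt1, a long noncoding RNA gene that starts downstream of Myc on the same chromosome (62037987 to 62250975), was named after its values were seen. It stood at 4.26, 4.26 and 3.99 FPKM in S37A and at 5.45, 5.57 and 5.30 FPKM in vector, with no overlap of the groups. Its log2 difference was -0.32 (SE 0.04, limma adjusted p = 0.00668), beside -0.30 for Myc. It was called under the 15 other settings in which it was tested (adjusted p 0.00180 to 0.0380).

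Mycn, the paralog of Myc best known from neural development and neuroblastoma, moved in the opposite direction at a very low level. It lies on chromosome 12 from 12936093 to 12941836. Its level was 0.570, 0.589 and 0.573 FPKM in S37A and 0.287, 0.391 and 0.354 FPKM in vector. The groups did not overlap, and the ratio of means was 1.68. From the width of the deposited intervals these values rest on the equivalent of 64, 58 and 60 fragments in S37A and 34, 49 and 40 fragments in vector, which covers counting error only. The deposited intervals of each library ran from 0.425 to 0.743 FPKM in S37A, taking lowest to highest bound, and from 0.189 to 0.502 FPKM in vector, so the 2 ranges overlapped. With no expression filter, where 3.07% of 19606 genes were called higher and 8.76% lower, limma called Mycn higher (log2 difference 0.23, SE 0.03, adjusted p = 0.020). With no filter it was also called under median-ratio scaling (adjusted p = 0.0136) and under quantile normalization (adjusted p = 0.0180), 2 settings chosen after the data were seen. Myc exceeded Mycn by a ratio of 69.8 to 72.7 in S37A and 139 to 165 in vector. Mycl, which encodes L-MYC, averaged 2.92 ± 0.0632 FPKM in S37A and 2.83 ± 0.324 FPKM in vector and did not pass (adjusted p = 0.686).

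Max, the shared dimer partner, was at 31.5, 33.8 and 33.2 FPKM in S37A and 36.8, 37.8 and 34.0 FPKM in vector. The lowest vector library lay only just above the highest S37A library. Its log2 difference of -0.14 (SE 0.05) did not pass the test (limma adjusted p = 0.0744). It was called only without vector replicate 3 (adjusted p = 0.0495), and the difference was -0.06 under median-ratio scaling. The ratio of Myc to Max averaged 1.25 ± 0.0548 in S37A and 1.41 ± 0.111 in vector, with overlapping groups.

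Among the MAX-binding repressors, Mxd4 made up most of the RNA and was the only one of the 4 tested that was called. Mxd4 (chromosome 5, 34176580 to 34187710) encodes MXD4, also called MAD4, a repressor usually linked to cells leaving the cycle. It was at 42.9, 38.3 and 38.3 FPKM in S37A and 50.9, 57.1 and 50.6 FPKM in vector. No S37A library reached the lowest vector library. Mxd4 fell by 24.7% in the ratio of means, or by 0.40 on the log2 scale (SE 0.06, limma adjusted p = 0.00925), and it was called under all 16 other settings (adjusted p 0.00169 to 0.0442). Its only transcript model rested on the equivalent of 1579 to 2042 fragments per S37A library and 2376 to 2956 per vector library.

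Mnt, which encodes the most widely expressed MYC antagonist, was the only tested member with a positive difference. It was at 7.33, 8.55 and 8.81 FPKM in S37A and 7.50, 7.42 and 7.82 FPKM in vector. S37A replicate 1 lay below all vector libraries while the other two S37A libraries lay above them. The log2 difference of 0.10 (SE 0.07) did not pass (adjusted p = 0.273), nor did it without S37A replicate 1 (log2 difference 0.17, adjusted p = 0.0513). The share of Mnt in the repressor sum averaged 16.0% ± 2.02 in S37A and 11.8% ± 0.844 in vector, and that of Mxd4 76.9% ± 2.59 in S37A and 82.1% ± 1.41 in vector. These shares did not overlap between groups and were not tested.

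Mxi1 and Mxd1 were low and showed no called change. Mxi1, also known as Mxd2, was at 2.19, 2.47 and 2.42 FPKM in S37A and 2.72, 2.40 and 2.39 FPKM in vector (log2 difference -0.06, adjusted p = 0.472). Mxd1, which is induced in differentiating myeloid and epithelial cells, was at 1.26, 1.28 and 1.37 FPKM in S37A and 1.46, 1.25 and 1.46 FPKM in vector (log2 difference -0.05, adjusted p = 0.528). For either gene the S37A and vector libraries overlapped. Under quantile normalization the difference was 0.02 for Mxi1 and 0.00 for Mxd1, so neither gene has a stable direction here. Mxd3, the member tied to dividing cells, was listed at 0 FPKM in all 6 libraries, and its locus overlaps that of Prelid1 in the files. The kit does not mark strand, so reads of the 2 genes cannot be told apart where they overlap, and nothing is said of Mxd3 expression.

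Mga (chromosome 2, 119897228 to 119969581) was at 4.81, 4.40 and 4.68 FPKM in S37A and 5.49, 5.71 and 5.26 FPKM in vector, again without overlap. It fell by 15.6%, or by 0.20 on the log2 scale (SE 0.05, limma adjusted p = 0.0254). This call was the least secure of the 3. It was lost under median-ratio scaling (log2 difference -0.14, adjusted p = 0.0899), under quantile normalization (-0.12, 0.126), without the 100 most abundant genes (adjusted p = 0.0539), with no filter (0.0517), with the replicate block (0.0676) and on its most abundant model (-0.31, 0.133). It was also lost without S37A replicate 2 (adjusted p = 0.0829), S37A replicate 3 (0.0760) or vector replicate 2 (0.0671).

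Myc and Mxd4 were lower together, and the ratio of Myc to the summed repressor RNA, most of it Mxd4, differed little between groups. The summed FPKM of Mxd1, Mxd3, Mxd4, Mxi1 and Mnt was 53.7, 50.6 and 50.9 in S37A and 62.6, 68.2 and 62.3 in vector. Myc divided by that sum was 0.772, 0.812 and 0.800 in S37A and 0.760, 0.796 and 0.824 in vector. The ratio averaged 0.795 ± 0.0209 in S37A and 0.793 ± 0.0326 in vector, a difference smaller than the spread in either group, while both quantities that form it stood apart between groups. The ratio of Myc to Mnt alone was lower in S37A, at 5.66, 4.80 and 4.62 in S37A and 6.34, 7.31 and 6.57 in vector, without overlap. A library's scale cancels in these ratios, which are given as descriptions with no test.

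**Figure D2:**
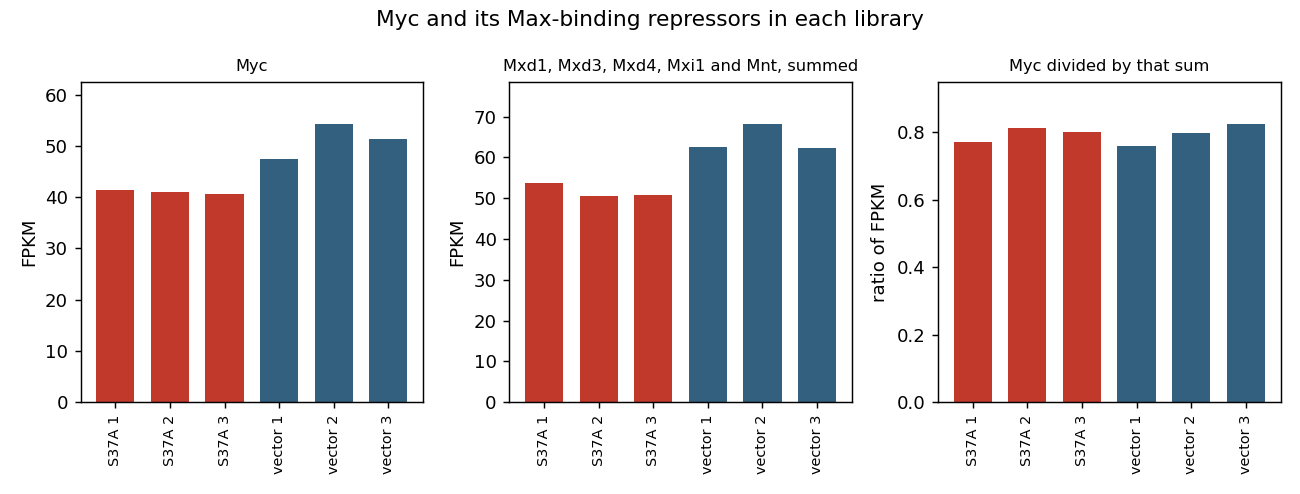
FPKM of Myc (left), summed FPKM of Mxd1, Mxd3, Mxd4, Mxi1 and Mnt (middle) and Myc divided by that sum (right) in the 3 S37A libraries (red) and the 3 vector libraries (blue); each bar is 1 library. Myc and the repressor sum are lower in every S37A library, whereas the ratio lies between 0.760 and 0.824 with the groups intermixed.

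The other scalings moved the difference of every tested member upward. Median-ratio scaling, which moved the median of all genes to 0.00, gave log2 differences of -0.23 for Myc and -0.33 for Mxd4 (limma adjusted p = 0.0172 for each). Quantile normalization gave -0.28 and -0.37, and leaving out the 100 most abundant genes gave -0.27 and -0.37. With FPKM as deposited 6.06% of all genes were called higher and 19.9% lower; these shares were 10.5% and 7.86% under median-ratio scaling. They were 9.10% and 7.96% under quantile normalization. Leaving out the 100 most abundant genes gave 7.54% and 12.6%. Myc and Mxd4 were thus called lower under each of these scalings, Mga only with FPKM as deposited.

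**Figure D3:**
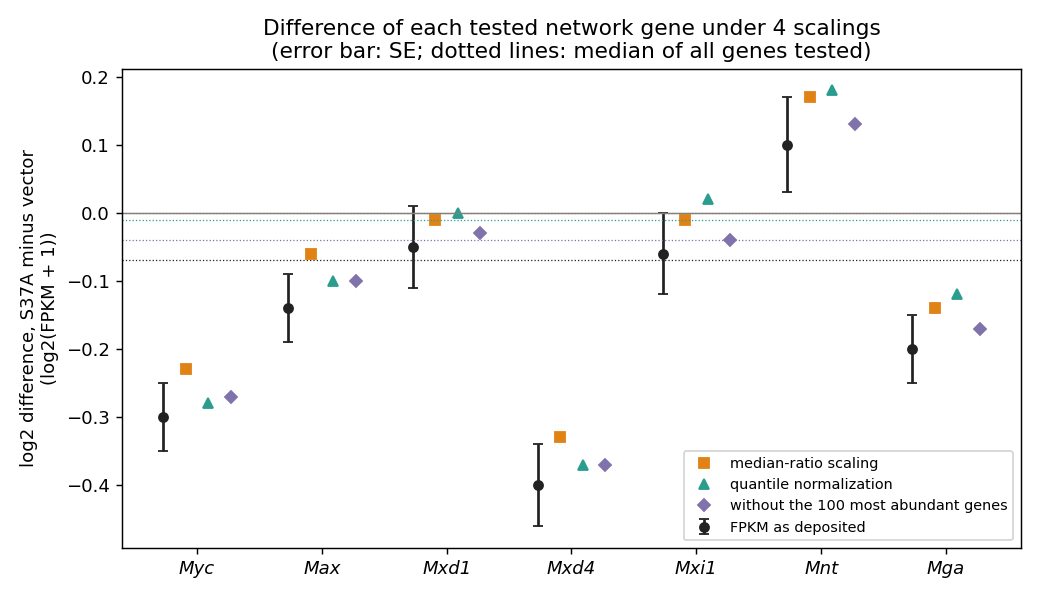
Log2 difference (S37A minus vector, on log2(FPKM + 1)) of the 7 tested network genes under 4 scalings, with the SE of the main fit as an error bar and the median of all tested genes under each scaling as a dotted line. Mxd4 and Myc lie well below 0 and below every median, Mxd1 and Mxi1 lie close to them, and Mnt lies above 0 throughout.

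The 9 genes had 14 transcript models, of which 11 passed the same filter in a fit over 14550 models. In that fit 1 member model was called lower, the only model of Mxd4 (adjusted p = 0.0341), where 5.29% of all models were called lower and 2.62% higher (7.91% together). This call was lost in each fit without 1 library. The 2 models of Myc share their start and end and are 2399 and 2396 bases long. They are the forms NM_001177352, at 29.8 ± 2.08 FPKM in S37A and 35.6 ± 1.85 FPKM in vector, and NM_001177353, at 11.3 ± 1.78 FPKM in S37A and 15.4 ± 1.59 FPKM in vector. Each was lower in every S37A library, with adjusted p = 0.0620 and 0.0943. The longer took 69.2% to 77.6% of Myc in S37A and 69.0% to 71.3% in vector, and these ranges overlapped. Of the models of Max, NM_001146176 was at 25.1 ± 0.366 FPKM in S37A and 26.6 ± 2.61 FPKM in vector, and NM_008558 was at 7.67 ± 0.925 FPKM in S37A and 9.61 ± 0.646 FPKM in vector. The groups overlapped for the first and not for the second, and neither passed (adjusted p = 0.513 and 0.0998).

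Reads of Mxi1 and Mga were assigned unevenly among their models. NM_010847, whose start lies between those of the other two Mxi1 models, took 32.6%, 50.8% and 0% of Mxi1 in S37A, against 30.9% to 39.0% in vector. In S37A replicate 3, 25.8% went to NM_001008543, which was listed at 0 in the other libraries. The shorter Mga form NM_001164274 was listed at 0 in vector replicate 2 and at 1.47 FPKM in vector replicate 3. The sum over models was steadier: Mxi1 lay between 2.19 and 2.72 FPKM and Mga between 4.40 and 5.71 FPKM over all 6 libraries.

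**Figure D4:**
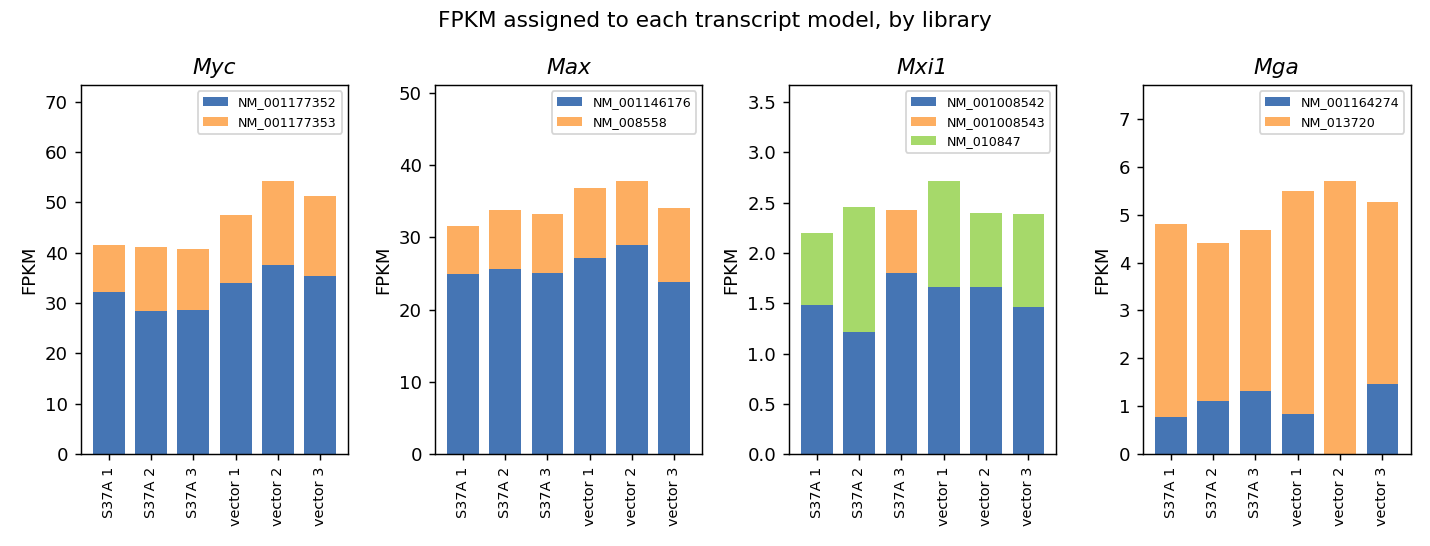
FPKM assigned to each RefSeq transcript model of Myc, Max, Mxi1 and Mga (colours), stacked to the gene's sum, in the 3 S37A libraries (left) and 3 vector libraries (right) of each panel. Both models of Myc and of Max are above 0 in every library, and for Mxi1 and Mga single models drop to 0 in some libraries while the stacked height changes little.

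The promoter windows of the members were searched for the binding letters of the network itself. RefSeq windows (GRCm38.p6, the same build as mm10) from 250 bases before to 50 after each start were given for 8 of the 9 genes, 10 windows in all. The gene without a window was Myc, so the Myc promoter was not searched. The E-box CACGTG, which reads the same on both strands, was present in those of Max, Mnt and Mxd4, and in 7.15% of all 32851 windows. The TCF/LEF letters CTTTGAT, read on both strands, were in none of the 10 windows and in 3.73% of all. The 3 windows with an E-box are shown because they place a MYC/MAX letter string beside 3 genes of the network, 1 of which fell with Myc. The E-box is in capitals and each sequence runs along the gene's own strand. It starts at position -219 in Mxd4, -123 in Mnt and -3 in Max, where -1 is the base just before the start site.
Mxd4, chr5:34187661-34187960, minus strand: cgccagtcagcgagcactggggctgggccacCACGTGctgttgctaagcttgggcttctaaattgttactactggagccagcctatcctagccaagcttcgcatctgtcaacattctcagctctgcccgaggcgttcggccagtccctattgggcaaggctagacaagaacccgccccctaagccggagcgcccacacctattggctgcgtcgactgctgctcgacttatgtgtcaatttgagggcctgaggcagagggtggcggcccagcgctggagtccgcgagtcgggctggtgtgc
Mnt, chr11:74830674-74830973, plus strand: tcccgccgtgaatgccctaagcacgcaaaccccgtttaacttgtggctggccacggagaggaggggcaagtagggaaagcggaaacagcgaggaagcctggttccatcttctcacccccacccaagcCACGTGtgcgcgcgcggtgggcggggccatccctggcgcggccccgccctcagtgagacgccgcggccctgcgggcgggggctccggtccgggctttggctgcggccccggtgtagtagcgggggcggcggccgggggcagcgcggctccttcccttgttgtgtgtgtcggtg
Max, chr12:76962199-76962498, minus strand: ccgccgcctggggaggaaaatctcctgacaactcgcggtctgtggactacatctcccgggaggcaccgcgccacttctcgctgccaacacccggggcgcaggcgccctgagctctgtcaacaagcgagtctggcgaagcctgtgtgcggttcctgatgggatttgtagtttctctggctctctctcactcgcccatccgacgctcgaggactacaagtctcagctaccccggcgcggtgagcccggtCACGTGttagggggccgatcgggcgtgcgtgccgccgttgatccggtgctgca

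Of these 3 genes only Mxd4 was called. A match of letters is not a bound site, and a window without them says nothing about factors that bind elsewhere.

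Many genes that MYC is known to induce were lower. Of 44 such genes, all tested, 20 were lower in S37A, 0 higher and 24 did not pass, a share of 45.5% beside 19.9% of all genes, with a median log2 difference of -0.16 beside -0.07. The list was written with earlier results of these data known. Among nucleolar and ribosome-building genes Ncl, Npm1, Nop56, Nop58, Nop2, Nop16, Fbl, Nolc1, Dkc1, Ddx21, Mrto4 and Polr1b were lower. Bop1, Pes1, Wdr12, Wdr43, Gnl3, Mybbp1a, Ppan, Rrp9 and Rrp12 did not pass. Cdc25a, a phosphatase that activates cyclin-dependent kinases, averaged 4.31 ± 0.256 FPKM in S37A and 5.89 ± 0.306 FPKM in vector (log2 difference -0.38, adjusted p = 0.00778). Cdk4, a kinase of the G1 phase, averaged 153 ± 7.11 FPKM in S37A and 179.6 ± 4.12 FPKM in vector (-0.23, adjusted p = 0.0119). Cad, which starts pyrimidine synthesis, averaged 9.37 ± 0.252 FPKM in S37A and 11.4 ± 0.724 FPKM in vector (-0.26, adjusted p = 0.0160). Odc1, the first enzyme of polyamine synthesis, averaged 52.8 ± 1.51 FPKM in S37A and 60.7 ± 2.29 FPKM in vector (-0.20, adjusted p = 0.0161).

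The count of lower targets depended strongly on scaling and on single libraries. It was 5 of 44 under median-ratio scaling and 10 under quantile normalization, where 7.86% and 7.96% of all genes were lower. Without S37A replicates 1, 2 and 3 it was 7, 4 and 2, or 15.9%, 9.09% and 4.55% of the list, beside 11.1%, 6.73% and 4.55% of all genes in the same fits. Without vector replicates 2 and 3 it was 8 and 3, or 18.2% and 6.82%, beside 9.9% and 9.87% of all genes. Without vector replicate 1 it was 29, or 65.9%, beside 20% of all genes. Without S37A replicate 3 or vector replicate 3 the share of the list thus did not exceed that of all genes. Of the 12 proliferation markers, summing to 85.1 to 90.1 FPKM in S37A and 109.9 to 146 FPKM in vector, 11 were lower in the same libraries, and their part in this result was not tested. In the promoter windows, 12 of 36 target genes with a window held the E-box, a share of 33.3% against 8.09% of all genes with a window. Of those 36, 2 of 18 that were lower and 10 of 18 that were not called held it, a split noticed after the values were seen and not tested.

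Genes that MYC is reported to repress were called about as often as all genes. Of 16 tested, 1 was higher (6.25%, beside 6.06% of all genes), 3 were lower (18.8%, beside 19.9%) and 12 did not pass. The median log2 difference of the list was 0.03, beside -0.07 for all genes. Its differences were positive for 10 genes and negative for 6, where 69.5% of all genes were negative. Cdkn2b, which encodes the CDK4 and CDK6 inhibitor p15, was the one that rose, at 134, 133 and 128 FPKM in S37A and 114, 92.9 and 104 FPKM in vector (log2 difference 0.35, SE 0.07, adjusted p = 0.0151). The limma call for Cdkn2b was lost without S37A replicate 2 (adjusted p = 0.0531) or 3 (0.0508), which left 0 of the list higher. In the list 2 were higher without S37A replicate 1 and 3 without vector replicate 1. Of 12022 genes, 350 were higher without S37A replicate 2 and 276 without S37A replicate 3. It was 592 genes without S37A replicate 1 and 744 without vector replicate 1. Gadd45a and Ddit3, which are stress-induced growth arrest genes, were lower, at 56.0 ± 2.48 and 133 ± 3.23 FPKM in S37A and 73.3 ± 2.85 and 169 ± 9.56 FPKM in vector (adjusted p = 0.00440 and 0.00663). Fth1, the ferritin heavy chain, averaged 908 ± 27.3 FPKM in S37A and 1087 ± 76.6 FPKM in vector (adjusted p = 0.0186), a call lost with no filter (0.0535), under median-ratio scaling (0.0581) and without S37A replicate 2 (0.0599) or 3 (0.0735).

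**Figure D5:**
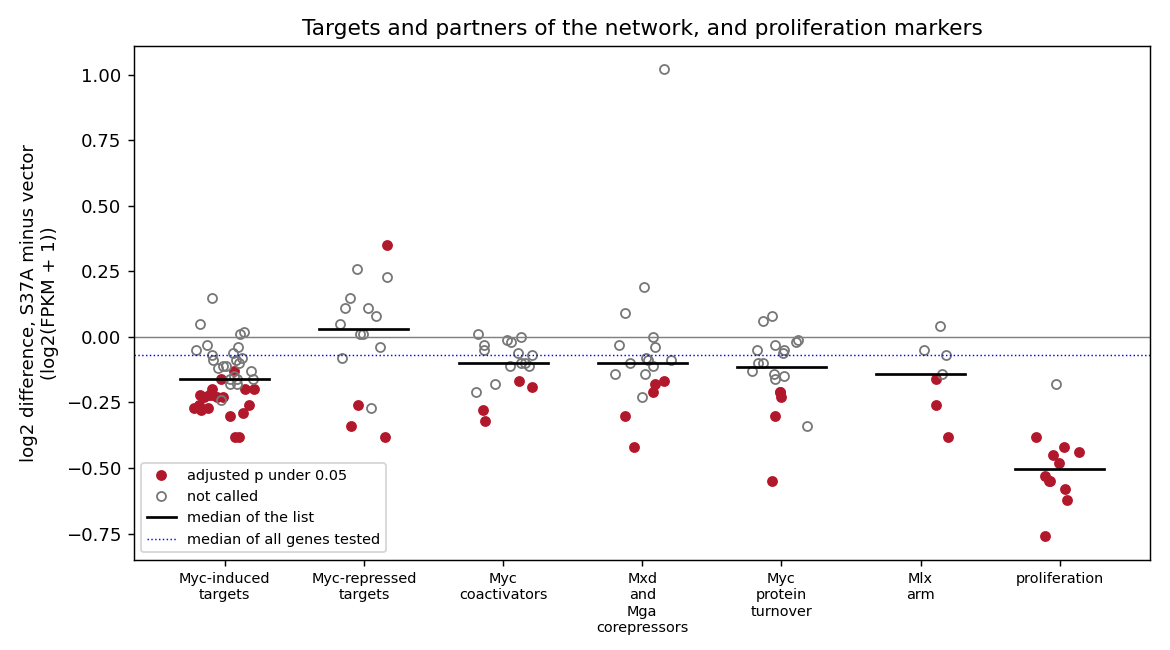
Log2 difference (S37A minus vector, on log2(FPKM + 1)) of each tested gene in 6 lists of network targets and partners and in the proliferation markers; filled red points passed at an adjusted p under 0.05, and black bars are list medians. The Myc-induced targets centre at -0.16 and the proliferation markers at -0.51, beside -0.07 for all genes (dotted line); the open point at 1.02 is Sap18, which was listed at 0 in vector replicate 2 and did not pass.

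In the main comparison cofactors were called lower at shares near or above that of all genes. Of 18 coactivators that MYC recruits, 4 were lower and 0 higher, a share of 22.2% near the 19.9% of all genes. The count of coactivators was 1 without S37A replicate 2 or 3 or vector replicate 3, and 2 without vector replicate 2. It was 3 without S37A replicate 1 and 6 without vector replicate 1. In the fits without S37A replicates 1, 2 and 3, the share of all genes called lower was 11.1%, 6.73% and 4.55%. Without vector replicates 1, 2 and 3 that share was 20%, 9.9% and 9.87%. The 4 were Ruvbl2, a helicase of the TIP60 complex (23.1 ± 0.897 FPKM in S37A, 29.1 ± 1.88 FPKM in vector, adjusted p = 0.0102), the histone methylation scaffold Wdr5, and the acetyltransferases Crebbp and Kat2a. Under median-ratio scaling the calls of Wdr5 (adjusted p = 0.0506), Crebbp (0.119) and Kat2a (0.162) were lost. Of 19 corepressors of the MXD proteins and MGA, 5 were lower and 0 higher, a share of 26.3% beside 19.9% of all genes. Sin3a, the scaffold that MXD proteins bind, averaged 5.30 ± 0.0442 FPKM in S37A and 6.77 ± 0.229 FPKM in vector (adjusted p = 0.00630). Cbx1, a heterochromatin protein, averaged 17.3 ± 1.40 FPKM in S37A and 23.4 ± 2.45 FPKM in vector (adjusted p = 0.0154), and Tfdp1, Rbbp4 and Sin3b were lower at adjusted p = 0.0156, 0.0259 and 0.0272. The count of corepressors was 3 without S37A replicate 1 or vector replicate 2, 1 without S37A replicate 2 and 2 without S37A replicate 3. It was 7 without vector replicate 1 and 4 without vector replicate 3, beside the same shares of all genes as for the coactivators. The calls of Tfdp1 (adjusted p = 0.0528) and Rbbp4 (0.112) were lost under median-ratio scaling. Tfdp1 had the opposite sign when only its most abundant transcript model was used (log2 difference 0.44, adjusted p = 0.0291).

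Genes that control the stability of MYC protein were lower in 5 of 20 cases and higher in 0, a share of 25.0% near the 19.9% of all genes. Gsk3b, whose kinase phosphorylates both MYC and β-catenin ahead of their breakdown, averaged 15.9 ± 0.526 FPKM in S37A and 18.5 ± 0.897 FPKM in vector (adjusted p = 0.0192; 0.0689 under median-ratio scaling). Mapk3, which encodes ERK1, a kinase that stabilises MYC, averaged 59.1 ± 0.518 FPKM in S37A and 68.3 ± 3.10 FPKM in vector (adjusted p = 0.0141). The deubiquitinase gene Usp37 and the mitotic kinase gene Aurka were lower at adjusted p = 0.0153 and 0.0253, and Skp2, a ubiquitin ligase subunit, at 0.0341. The count was 3 without S37A replicate 1 or vector replicate 2, and 2 without S37A replicate 2 or vector replicate 3. It was 0 without S37A replicate 3 and 9 without vector replicate 1. In the fits without S37A replicates 1, 2 and 3, the share of all genes called lower was 11.1%, 6.73% and 4.55%. Without vector replicates 1, 2 and 3 that share was 20%, 9.9% and 9.87%. Fbxw7, the ubiquitin ligase subunit that recognises phosphorylated MYC, did not pass (adjusted p = 0.319). RNA levels do not show how much MYC protein was present.

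In a list of the parallel MLX arm, whose MLXIP and MLX proteins respond to glucose, and of other E-box factors, 3 of 7 tested genes were lower and 0 higher, a share of 42.9% beside 19.9% lower and 6.06% higher of all genes. Arrdc4 and Txnip, 2 glucose-responsive targets of that arm, averaged 14.0 ± 0.842 and 47.8 ± 4.24 FPKM in S37A and 18.6 ± 1.5 and 57.2 ± 2.46 FPKM in vector (adjusted p = 0.0106 and 0.0286). The third was Usf2, an E-box factor outside the network (adjusted p = 0.0396), and Usf1 did not pass (0.0790). Txnip (limma adjusted p = 0.10) and Usf2 (0.173) lost their calls under median-ratio scaling, and also with no filter (0.0570 and 0.0595). Tfap4 and Mlxipl lay under the filter. Tfap4 averaged 0.284 ± 0.0433 FPKM in S37A and 0.680 ± 0.195 FPKM in vector, without overlap. With no filter, where 8.76% of 19606 genes were lower, limma called Tfap4 lower (log2 difference -0.38, SE 0.08, adjusted p = 0.0382). Mlx itself stood at 16.1 ± 1.04 FPKM in S37A and 16.9 ± 0.493 FPKM in vector, and Mlxip at 6.79 ± 0.152 FPKM in S37A and 7.09 ± 0.141 FPKM in vector, neither called. Under median-ratio scaling, quantile normalization, without the 100 most abundant genes and with the replicate block, 1 of the list was lower. Of all genes, 7.86%, 7.96% and 12.6% were lower under these scalings, in that order, and 1193 of 12022 with the block. The count was also 1 without S37A replicate 2 or 3 or vector replicate 2 or 3. In those fits 6.73%, 4.55%, 9.9% and 9.87% of all genes were lower.

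Across the 6 libraries the 5 genes whose log2 levels followed Myc most closely, among those with a mean of at least 5 FPKM, were Plekhm2, Clptm1, Mapk3, Zfp623 and Tprkb, with Pearson r of 0.997 to 1.000. Mxd4 had r = 0.956, Mga 0.907, Max 0.759 and Mnt -0.563. Among the 7728 genes compared, these ranked 563, 1376, 2907 and 6339, counted from the highest r. These values are a description over 6 libraries in 2 groups that stand apart. Mapk3 illustrates the pattern, at 59.5, 59.1 and 58.5 FPKM in S37A and 65.2, 71.4 and 68.3 FPKM in vector, with the 3 S37A values close together and vector replicate 1 the lowest of its group, as for Myc.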

How the data were processed

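RNA was measured in 3 S37A and 3 vector libraries, grouped by their titles. Per the labels' protocols, the libraries were built with SMART-Seq v4, a kit that does not mark strand. The tools named per the submitters' processing notes are TopHat, Cufflinks and bcl2fastq 1.8.3, and the build is mm10. The authors deposited FPKM with interval bounds for 34535 transcript models, and a coverage signal that entered no test, per the file headers. No read counts are given. Fragment numbers worked back from the intervals were whole, within 0.02, for 80.8% to 83.8% of models up to 10 fragments and 9.00% to 10.1% above 30, so count models were not run.

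FPKM was summed by symbol, leaving out 5 symbols with a status other than OK, and tested with limma 3.58.1 (R 4.3.3) on log2(FPKM + 1) with an intensity trend and no block. Differences are S37A minus vector, on a scale that understates changes of low genes. The fit was tested on simulated data. Named are the 9 members, Ctnnb1, Axin2, the 4 genes of smallest p in each list, called members of the shortest list, and the 5 genes most like Myc. Other genes were named after their values were seen. Members and lists were chosen with earlier results of these data known.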

Additional observations from a re-analysis of the deposited data

How the results depend on the processing

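Over the 9 network genes, 16 other settings and 2 added for Mycn after the data were seen gave 113 pairs of gene and setting with a value, and 98 kept direction and side of the threshold. Myc and Mxd4 were called lower in all 16. The 9 lost calls were all of Mga, and the 4 gained were of Mycn (3, all without the filter) and Max (1). Under quantile normalization the sign changed for Mxd1 (0.00) and Mxi1 (0.02), and for Plekhm2 (0.00), none of them called; Tfdp1 had a log2 difference of 0.44 on its most abundant model. The cause of these changes was not tested.

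Without the filter 1 member was called higher, 0 member models were called, and 8 Myc-induced targets, 2 coactivators and 3 turnover genes were lower. There 3.07% of 19606 genes were higher and 8.76% lower, and of 24710 models 200 were higher and 280 lower. At a mean of at least 5 FPKM, 2 member models were called and 3 turnover genes were lower. At that filter 545 of 7729 genes were higher and 1641 lower, and of 8276 models 383 were higher and 857 lower. Median-ratio scaling called 1265 of 12022 genes higher and 945 lower, against 729 and 2393 in the main analysis. It called 0 member models, where 648 of 14550 models were higher and 291 lower. Under it 1 Myc-induced target was higher and 5 lower, 3 repressed targets higher, 1 coactivator lower, 2 corepressors higher and 2 lower, 1 turnover gene higher and 3 lower, and 1 gene of the Mlx list lower. Quantile normalization called 1094 genes higher and 957 lower, with 0 member models, where 489 of 14550 models were higher and 323 lower. Under it 10 Myc-induced targets were lower, 2 repressed targets higher, 2 coactivators lower, 1 corepressor higher, 1 turnover gene higher and 3 lower, and 1 gene of the Mlx list lower. Without the 100 most abundant genes 899 of 11922 genes were higher and 1503 lower. There 1 Myc-induced target, 2 repressed targets, 1 corepressor and 1 turnover gene were higher. In the same fit 2 coactivators and 1 gene of the Mlx list were lower. Sample weights called 1238 genes higher and 3655 lower, and 2 member models, where 663 of 14550 models were higher and 1584 lower. With them 31 Myc-induced targets, 8 coactivators and 9 turnover genes were lower, and 4 repressed targets, 1 corepressor and 1 turnover gene were higher. The most abundant model of each gene gave 522 of 11924 genes higher and 1491 lower. With it 11 Myc-induced targets and 2 coactivators were lower and 2 corepressors higher.

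Same-numbered libraries correlated at -0.12, 0.02 and 0.10 in their deviations from the group means, so the numbers were not taken to pair the samples. With the replicate block 442 genes were higher and 1193 lower, 2 of the 9 members were lower and 0 member models were called. Of all 14550 models, 11 were higher and 14 lower with the block. The block left 2 coactivators, 3 corepressors, 3 turnover genes and 1 gene of the Mlx list lower. Not every S37A library correlated best with its own number.

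Leaving out 1 library at a time gave 276 to 744 genes higher and 547 to 2406 lower. It gave 2 to 4 members lower and 0 higher, and 0 member models. Of all 14550 models, 36 to 255 were higher and 38 to 435 lower in these fits. Myc-induced targets were higher in 0 to 1 and lower in 2 to 29 cases. Repressed targets were higher in 0 to 3, coactivators lower in 1 to 6, corepressors higher in 0 to 1 and lower in 1 to 7, turnover genes lower in 0 to 9, and genes of the Mlx list lower in 1 to 3. The Myc to repressor ratio differed between groups by -0.015 to 0.017.

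Depth limits Mycn most, with 34 to 64 fragment equivalents per library, while Mxd4 rests on 1579 to 2956. Whole reads could not be recovered, so no count model was fitted, and 3 libraries per group cannot reach an exact permutation p under 0.1.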
